A study of Mus musculus with 2 samples.

Results

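Capillary and venous endothelial cells of injured mouse spinal cord were described in 559 of the 5145 cell barcodes that passed the cell filter, out of 5946 barcodes in all. A barcode is the tag of 1 droplet, and its counts are unique molecular identifiers (UMIs), each standing for 1 captured transcript. The members were chosen by measured counts of rule genes. A kept barcode was a member if it held at least 5 UMIs of Cldn5, Flt1 and Pecam1 together, fewer than 3 of the arterial genes Gkn3, Sema3g, Vegfc and Stmn2, fewer than 50 of 4 haemoglobin genes, at most 3 of the pericyte genes Kcnj8, Abcc9 and Higd1b, and at most 10 of C1qa and C1qb. The spinal cords were sampled 5 days after injury, and 1 library came from HDAC3 inhibitor treatment (HDAC3i) and 1 from vehicle treatment, both made with a 10x Genomics kit that tags transcripts at their 3' end. The labels used here name no compound, strain, age, sex or kind of injury, and do not say how many animals were pooled. With 1 library per group there was no replicate check and no test, so libraries are compared and not treatments. The 95% intervals cover counting error only.

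Brain and spinal cord capillaries are lined by endothelial cells that are sealed by tight junctions and carry nutrients and drugs across the vessel wall through dedicated transporters, which together form the blood-brain and blood-spinal cord barrier. Gene use shifts gradually along the vessel, from arteries through capillaries to veins, and leukocytes leave the blood mainly through venules, where adhesion molecules are displayed. HDAC3 is a histone deacetylase that acts in the NCoR and SMRT corepressor complexes.

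The HDAC3i library gave 316 members of 2975 kept barcodes, 10.6% with a Clopper-Pearson interval of 9.54% to 11.8%. The vehicle library gave 243 of 2170, 11.2% with an interval of 9.90% to 12.6%. The intervals overlapped. The members held 3201529 UMIs in the HDAC3i library and 2600242 in the vehicle library, with medians of 7077.5 and 7347 UMIs per cell, and medians of 3.76% and 4.07% of UMIs from mitochondrial genes. Of the endothelial barcodes, 91 and 66 missed membership through the arterial limit alone and 71 and 33 through the haemoglobin limit alone. The libraries shared 10 barcode sequences, none of them a member in both.

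The rule chose the members by Cldn5, Flt1 and Pecam1, so their levels are a description. Members held a median of 69.5 UMIs of the 3 genes in the HDAC3i library and 80 in the vehicle library, far above the limit of 5. Only 3 and 1 members lay just inside it, at 5 or 6 UMIs, and 5 and 5 barcodes that met every other clause lay just outside, at 3 or 4 UMIs. Slco1a4, an organic anion transporter of barrier endothelium that the rule did not use, was found in 311 of 316 and 234 of 243 members, 98.4% and 96.3%. In a cluster of C1q-rich barcodes, which should lack it, the shares were 2.51% and 2.65% at deeper medians of 10748 and 12448 UMIs.

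Genes that the rule left free also marked barrier endothelium. All levels below are CPM, a gene's share of the UMIs summed over the members, in the order HDAC3i, vehicle. The kit counts 1 tag per transcript, so levels need no correction for length. Slc2a1, the glucose transporter of the barrier, was at 1805 and 1821 CPM. Abcb1a, the drug efflux pump P-glycoprotein, was at 775 and 861 CPM. Among the 20 genes with the largest ratio over barcodes with fewer than 5 endothelial UMIs were Ly6c1, at 2958 and 3107 CPM against 3.15 and 3.89, and the thyroid hormone and anion transporter Slco1c1, at 1011 and 1254 CPM against 1.48 and 1.09.

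Marker genes of other cells were present at uneven levels. The 11 monocyte and macrophage markers summed to 3330 and 1353 CPM, and to 1035 and 984 CPM without the 5 and 3 members that lay outside endothelial clusters of the whole data set. The 10 neutrophil markers summed to 97.8 and 187 CPM, the 8 oligodendrocyte markers to 281 and 471 CPM, and the 7 Schwann cell markers to 1099 and 1067 CPM, most of it Mal, at 810 and 602 CPM. The 9 pericyte markers summed to 198 and 125 CPM, most of it Rgs5, at 187 and 105 CPM. Vascular smooth muscle, fibroblast and neuron markers summed to at most 6.54 CPM in either library. The 8 T and NK cell markers summed to 0.625 and 0.769 CPM, and the 6 B cell markers to 2.19 and 3.46 CPM. No UMI in either library was found for 6 T and NK cell, 2 B cell and 3 of 7 neuron markers. Cd3d, Cd3e, Ms4a1 and Syt1 were among these. In each of the 7 clusters of members described below, the macrophage marker Fn1 was at 346 CPM or more and Mal at 261 CPM or more. Whether these genes came from other cells was not tested, so the sums do not measure other cells' transcripts alone. The part of other cells' transcripts in the results below was not tested.

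Within the members, clustering gave 7 groups that differed in capillary and venous genes, in immediate-early genes and, in cluster 6, in macrophage and sprouting genes. The genes below defined the clusters and are descriptions. Clusters 1, 3, 4 and 5, with 142, 97, 96 and 67 cells, were low in venous genes and high in Mfsd2a and Cxcl12. Mfsd2a, a lipid transporter that keeps transcytosis low, was at 243, 327, 305 and 248 CPM. Cxcl12, a chemokine of capillaries, was at 1949, 3551, 2843 and 4472 CPM. Vcam1, a venular leukocyte adhesion molecule, was at 29.4 CPM or less in each of them. Cluster 3 was led by the immediate-early genes Fos, at 5181 CPM against 161 CPM in cluster 1, and Egr1, at 1309 CPM. The pericyte marker Rgs5, at 640 CPM, also led it, and whether these Rgs5 counts came from pericytes was not tested. Cluster 5 had the highest Hey1, at 121 CPM, Efnb2, at 72.8 CPM, and Alpl, at 105 CPM, genes of the arterial side. Its mean log2 fold over the other members was 0.50 for the 18 arterial genes listed. For the 13 capillary genes listed it was -0.15, against 0.14, 0.44 and 0.54 in clusters 1, 3 and 4. Cluster 5 was therefore not plainly capillary.

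Clusters 2 and 7, with 102 and 24 cells, were higher in venous genes. Their mean log2 folds over the other members were 0.28 and 2.29 for the 15 venous genes listed. For the capillary genes they were -0.12 and -1.88, so the list was only slightly lower in cluster 2 on average, with genes in both directions. In cluster 2 Vcam1 was at 737 CPM, Icam1 at 688 CPM, the glutamine transporter Slc38a5 at 841 CPM and the venous transcription factor Nr2f2 at 106 CPM. Of the capillary genes there, Mfsd2a was at 128 CPM, Cxcl12 at 450 CPM and Rgcc at 378 CPM, each below clusters 1, 3, 4 and 5. Slco1a4, at 1723 CPM, was within the range of those clusters, and Car4, at 1291 CPM, was at its highest of the 7 clusters. Cluster 7 was led by venular genes, with Ackr1, an atypical chemokine receptor of venules, at 1318 CPM, von Willebrand factor (Vwf) at 1485 CPM, Vcam1 at 1950 CPM, Lrg1 at 1560 CPM and Lcn2 at 2071 CPM, with Mfsd2a at 18.4 CPM and Cxcl12 at 48.4 CPM. Of the barrier genes, Slc2a1 was at 1866 CPM, within the range of the other clusters, while Slco1a4, at 795 CPM, Slco1c1, at 140 CPM, and Slc7a5, at 80.2 CPM, were at their lowest of the 7 clusters. Cluster 7 held 18 HDAC3i and 6 vehicle cells, which carried 13.7% and 6.19% of the members' UMIs.

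Cluster 6 was unnamed. Its 31 cells, 15 and 16 by library, were led by the macrophage genes Spp1 and Lyz2, and 6 of them lay outside endothelial clusters. It also held much of the UMIs of the sprouting genes Pgf, Apln and Angpt2: 98.4%, 89.5% and 72.4% of their vehicle counts. Of the HDAC3i counts it held all 9 UMIs of Pgf, 67.3% of those of Apln and 30.6% of those of Angpt2. At a finer resolution, chosen after the values were seen, 30 cells formed a cluster with the sprouting genes and 6 a cluster with the macrophage genes.

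**Figure D1:**
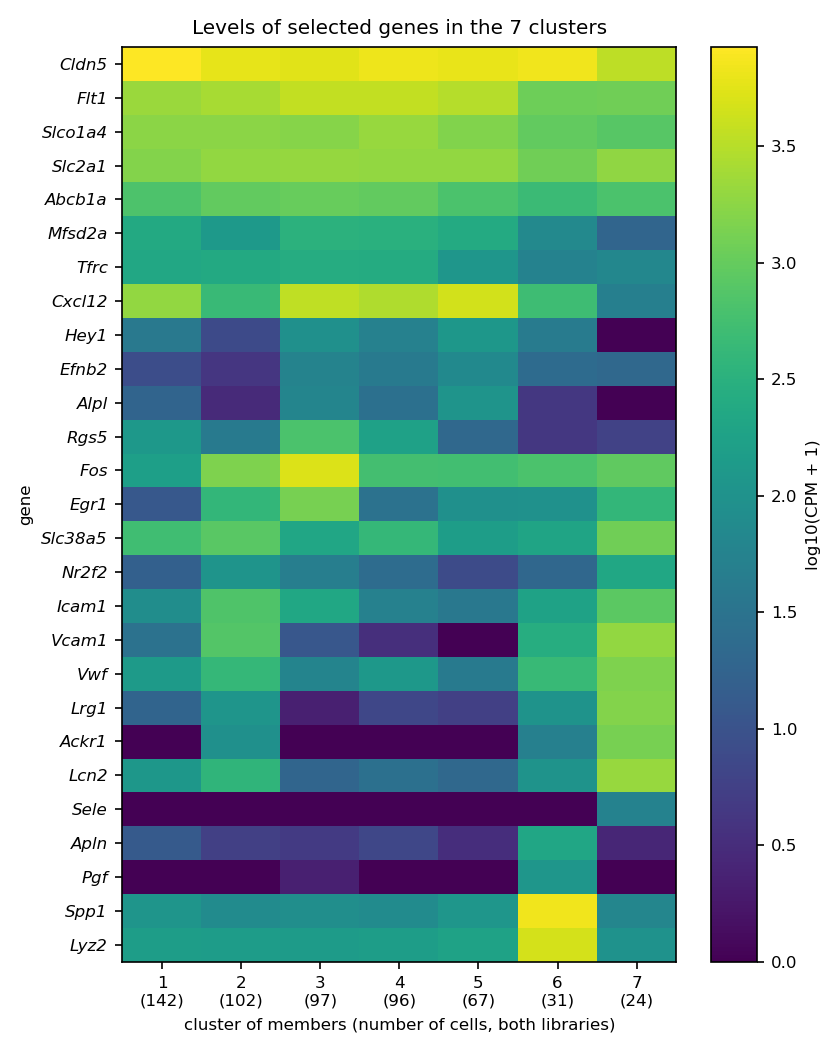
Levels of 27 genes (rows) in the 7 clusters of members (columns, with the number of cells of both libraries), coloured by log10(CPM + 1). Vcam1, Lrg1 and Ackr1 are highest in cluster 7, Cxcl12 in cluster 5, Fos in cluster 3, and Spp1 and Pgf in cluster 6.

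Between the libraries, few genes differed by much. Of 3144 genes with at least 100 UMIs and 50 CPM, 26 were at least 1.5-fold higher in the HDAC3i library, 0.827%, and 23 at least 1.5-fold lower, 0.732%. Many of these had a CPM in another cluster over 10 times that in the members, so their counts may be transcripts of other cells. Whether they were was not tested. Spp1 was at 1276 and 202 CPM, with 58.4% of the HDAC3i counts in 1 cell, and Lyz2 at 877 and 300 CPM, with 55.0% in 1 cell. S100a8 and S100a9, neutrophil genes, were found in more vehicle members, 52.7% and 58.0%, than HDAC3i members, 26.9% and 29.4%. Without the 8 members outside endothelial clusters, an alternative chosen after seeing the data, 15 genes were past the fold upward.

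**Figure D2:**
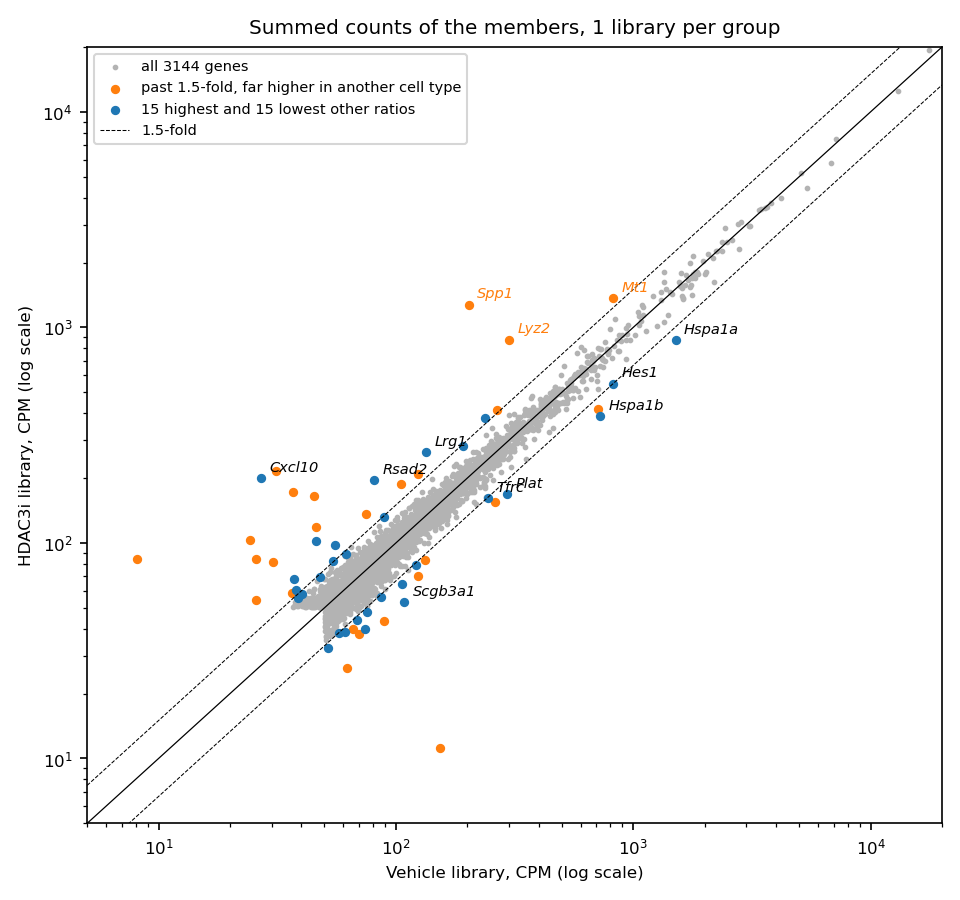
CPM of 3144 genes in the members of the vehicle library (x axis) and the HDAC3i library (y axis), both on log scales, with dashed lines at 1.5-fold. Orange points passed the fold but are far higher in another cell type, such as Spp1 and Lyz2, and blue points are the 15 highest and 15 lowest other ratios, with Hspa1a, Hspa1b, Plat, Tfrc and Hes1 on the lower side.

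The inducible heat shock protein 70 genes were among the lowest ratios. Hspa1a and Hspa1b encode this chaperone, which cells make in large amounts under heat and other protein stress. Hspa1a was at 872 CPM in the HDAC3i library and 1507 CPM in the vehicle library, a ratio of 0.58 (0.55 to 0.61). Hspa1b was at 388 and 727 CPM, a ratio of 0.53 (0.50 to 0.57). A UMI of Hspa1a was found in 72.2% and 79.8% of members, against 41.8% and 46.0% of the C1q-rich barcodes. The genes are near-identical copies beside each other on chromosome 17 (mm10, 34969190 to 34972156 for Hspa1a and 34956436 to 34959238 for Hspa1b), so the split of counts between them is uncertain.

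Their 250 bases before the start, from RefSeq on GRCm38.p6 (minus strand, chr17:34972157-34972406 for Hspa1a and chr17:34959239-34959488 for Hspa1b), are shown because both copies were low together, with capitals on matches to the heat shock element letters GAANNTTC or TTCNNGAA.
Hspa1a: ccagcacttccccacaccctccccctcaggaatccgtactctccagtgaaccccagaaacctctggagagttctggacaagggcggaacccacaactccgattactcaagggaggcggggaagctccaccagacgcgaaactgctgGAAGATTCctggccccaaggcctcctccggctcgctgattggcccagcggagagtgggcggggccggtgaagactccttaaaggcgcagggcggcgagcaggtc
Hspa1b: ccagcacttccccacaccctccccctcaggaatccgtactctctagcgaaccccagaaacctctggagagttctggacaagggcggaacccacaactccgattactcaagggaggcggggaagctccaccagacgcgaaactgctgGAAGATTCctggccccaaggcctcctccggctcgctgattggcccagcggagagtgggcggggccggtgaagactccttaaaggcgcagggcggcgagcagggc
The sequences were equal at 247 of 250 positions and each held 1 match. Of 32851 promoter windows of this length, 12.8% held at least 1, each motif reading alike on both strands.

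The heat shock difference was present in most subsets of the members. In clusters 1, 3, 4 and 5, Hspa1a was at 764 and 1583 CPM, a ratio of 0.48 (0.45 to 0.52), and in cluster 2 at 1066 and 1837 CPM, a ratio of 0.58 (0.53 to 0.63). Cluster 7 went the other way for Hspa1a, at 1245 and 988 CPM, a ratio of 1.26 (1.05 to 1.51), on 18 and 6 cells, while its Hspa1b ratio was 0.59 (0.47 to 0.76). Barcodes left out by the arterial limit had ratios of 0.87 (0.80 to 0.94) for Hspa1a and 0.59 (0.51 to 0.68) for Hspa1b. In kept barcodes with fewer than 5 endothelial UMIs the ratios were 0.98 (0.94 to 1.02) and 0.82 (0.77 to 0.87). Of 21 measured genes for heat shock and unfolded protein, 13 were lower and 8 higher. Over all 9572 genes of at least 20 UMIs, 51.3% were lower. The median log2 ratios were -0.05 and -0.01. Beside the pair, Hspb1, a small heat shock protein, was at 1628 and 2199 CPM (0.74, 0.71 to 0.77), and Hsp90b1, a chaperone of the endoplasmic reticulum, at 476 and 451 CPM (1.05, 0.98 to 1.14).

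Plat, Tfrc and Hes1 were also lower in the HDAC3i members. Plat encodes tissue plasminogen activator, which starts the breakdown of fibrin clots, and was at 169 and 294 CPM, a ratio of 0.57 (0.51 to 0.64). Tfrc, the transferrin receptor that brings iron into the cell, was at 161 and 244 CPM, a ratio of 0.66 (0.59 to 0.74). Hes1, a repressor that Notch signalling induces, was at 548 and 822 CPM, a ratio of 0.67 (0.63 to 0.71). Each was below 1 in clusters 1, 3, 4 and 5 and in cluster 2, and in cluster 7 Tfrc was at 1.96 (0.81 to 5.74). In the arterial-limit barcodes the ratios were 0.74 for Plat, 0.68 for Tfrc and 0.70 for Hes1, and in the barcodes with fewer than 5 endothelial UMIs 1.21, 0.93 and 1.05.

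Among the 15 genes with the highest ratios, Hif1a, the oxygen-regulated transcription factor, was at 132 and 88.8 CPM (1.49, 1.27 to 1.76). Hif1a was at 296 CPM in cluster 7 and at 116 CPM or less in each other cluster. Cluster 7 carried 13.7% of the members' UMIs in the HDAC3i library and 6.19% in the vehicle library. Zfp36l2, an RNA-decay factor also among the 15, was at 82.1 and 54.2 CPM (1.51, 1.23 to 1.87). Cxcl10, an interferon-induced chemokine, had the highest ratio, at 200 and 26.9 CPM, but 87.2% of its HDAC3i counts were in 1 cell and its ratio was 1.49 without the top cells. Rsad2, an antiviral gene, had 54.7% in 1 cell and a ratio of 1.15 without the top cells.

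**Figure D3:**
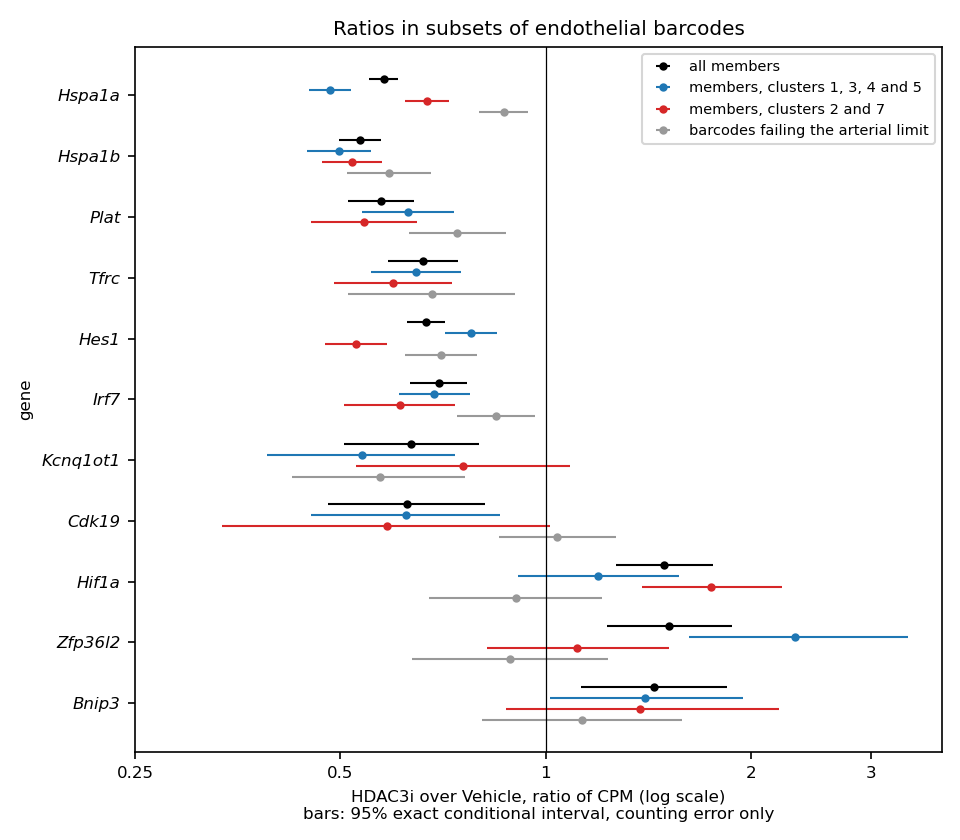
Ratio of CPM, HDAC3i over vehicle (log x axis), for 11 genes in all members, in 2 sets of member clusters and in barcodes that failed the arterial limit, with 95% exact conditional intervals for counting error only. Plat, Tfrc and Hes1 lie below 1 in all 4 sets, and Hif1a is at 1.49 in all members.

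Barrier transporters were slightly lower in the HDAC3i members. Of 23 measured, 21 had a ratio under 1, against 51.3% of all measured genes, with a median log2 ratio of -0.14. Past the fold downward was 1, Tfrc, 4.35% of the list against 5.19% of all measured genes. Slco1a4 was at 1412 and 1761 CPM (0.80, 0.77 to 0.84), Slco1c1 at 0.81 (0.77 to 0.85), the amino acid transporter Slc7a5 at 0.79 (0.73 to 0.87) and Mfsd2a at 0.82 (0.73 to 0.93). Slc2a1 and Abcg2 had intervals that held 1, and Slc38a5 was at 1.22 (1.13 to 1.31). In clusters 1, 3, 4 and 5 alone, 16 of 23 were under 1 and the median was -0.07. Of 14 tight and adherens junction genes, 9 were under 1, against 51.3% of all measured genes, and none was past the fold downward. Past it upward were 2, 14.3% of the list against 5.04% of all measured genes. They were Cldn12 (17 and 3 UMIs) and Marveld2 (32 and 16 UMIs), named after their values were seen. Cldn5, the main claudin and a rule gene, was at 5818 and 6819 CPM, Ocln at 191 and 202 CPM, and the scaffold protein Tjp1 at 506 and 459 CPM (1.10, 1.02 to 1.19).

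The venous genes were higher in the HDAC3i sum. Of 15 measured, 14 had a ratio over 1, against 48.7% of all measured genes, and the median log2 ratio was 0.28. Only Lrg1 was past the fold upward, 6.67% of the list against 5.04% of all measured genes. The 1 gene under 1 was past it downward, 6.67% against 5.19%. Lrg1, which acts on TGF-beta signalling in vessels, was at 264 and 134 CPM (1.97, 1.74 to 2.24), Vcam1 at 482 and 373 CPM (1.29, 1.19 to 1.40) and Vwf at 386 and 327 CPM (1.18, 1.08 to 1.29). Cluster 7 held 83.2% of the HDAC3i counts and 66.7% of the vehicle counts of Lrg1. Within cluster 7, Lrg1 was at 1604 and 1441 CPM and Ackr1 at 1090 and 1938 CPM, so the list's genes differed in direction there. Without clusters 6 and 7, 7 of 13 venous genes were under 1 and the median was 0.00. Without the 5% of members with the most UMIs, 10 of 15 were over 1 and the median was 0.11. Thinned to 2000 UMIs, 8 of 13 were over 1 and the median was 0.13.

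Sprouting genes were lower in the HDAC3i sum. Of 15 measured tip cell and angiogenic genes, 13 were under 1, against 51.3% of all measured genes. Past the fold downward were 7, 46.7% of the list against 5.19% of all measured genes. Pgf, a VEGF family ligand, was at 2.81 and 24.2 CPM, Apln, the apelin ligand, at 16.2 and 40.4 CPM, Angpt2, a ligand of Tie2, at 15.3 and 29.2 CPM, and Cxcr4, the receptor of Cxcl12, had 20 and 47 UMIs. Apart from the HDAC3i counts of Angpt2 these lay mostly in cluster 6, and 1 cell held 46.0% of the vehicle counts of Pgf. Cluster 6 carried 7.27% of the members' UMIs in the HDAC3i library and 14.6% in the vehicle library. In clusters 1, 3, 4 and 5 alone, 1 of 11 was under 1, and the median log2 ratio was 0.28 in place of -0.25. The count stayed at 13 of 15 with a stricter cell filter. Without the 5% of members with the most UMIs, 4 of 14 were under 1 and the median was 0.09. With each cell weighted alike, 7 of 15 were under 1 and the median was 0.00.

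Notch pathway genes, Hes1 among them, were lower in part. Of 10 measured, 7 were under 1, against 51.3% of all measured genes, with a median log2 ratio of -0.34. Hes1, named above for its low ratio, is counted in the 7. The ligand Dll1 alone was past the fold, upward, on 19 and 7 UMIs (2.20, 0.89 to 6.21). The receptors Notch1, at 100 and 137 CPM (0.73, 0.63 to 0.86), and Notch4 (0.73, 0.56 to 0.96) had intervals below 1, as did the ligand Jag2 (0.80, 0.66 to 0.96). The ligand Dll4 (0.93, 0.74 to 1.16) and the transcription factor Rbpj (1.09, 0.83 to 1.44) did not.

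Cholesterol synthesis genes were low in level and mostly lower in the HDAC3i members. Of 18 measured, 15 were under 1 and 6 past the fold, 33.3% of the list, against 51.3% and 5.19% of all measured genes, with a median log2 ratio of -0.37. Stard4, a sterol carrier, was at 63.4 and 86.5 CPM (0.73, 0.60 to 0.89), the synthesis enzyme Msmo1 at 19.4 and 30.4 CPM (0.64, 0.45 to 0.90) and the sterol sensor Insig1 at 18.1 and 28.1 CPM (0.65, 0.45 to 0.92). Hmgcs1, an early enzyme of the pathway, had 101 and 78 UMIs (1.05, 0.77 to 1.43).

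Basement membrane genes were under 1 for 16 of 18, against 51.3% of all measured genes, with a median log2 ratio of -0.22, but for 8 of 17 with a median of 0.00 in clusters 1, 3, 4 and 5. Lama4, a laminin chain of vessels, was at 56.2 and 86.9 CPM (0.65, 0.53 to 0.79), and Sparc, a matrix-binding glycoprotein, at 2310 and 2796 CPM (0.83, 0.80 to 0.85). Interferon response genes were under 1 for 18 of 26, against 51.3% of all measured genes, with a median of -0.10. That count was 15 with ratios centred on the median gene or with a stricter cell filter, 14 with at least 10 endothelial UMIs, and at most 22 over the other settings tried. Irf7, a regulator of the type I interferon response, was at 246 and 353 CPM (0.70, 0.63 to 0.77), and Ifitm3 at 3600 and 3605 CPM. MHC class I genes were under 1 for 12 of 15, against 51.3% of all measured genes, with a median of -0.08.

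Lists on the higher side had small medians. Ribosomal protein genes were over 1 for 17 of 20, against 48.7% of all measured genes, with a median log2 ratio of 0.12. Genes of NRF2, haem and metallothionein were over 1 for 14 of 17, against the same 48.7%, with a median of 0.17. The metal-binding protein Mt1 was at 1369 and 821 CPM (1.67, 1.58 to 1.76). Mt1 was among the genes over 10 times higher in another cluster.

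Hdac3, the target, was at 26.6 and 30.4 CPM, a ratio of 0.87 (0.64 to 1.20), and an inhibitor acts on the protein, so its mRNA does not check the labels. Of 14 genes of the corepressor complexes and class I deacetylases, 8 were over 1, near the 48.7% of all measured genes, and none past the fold, with a median of 0.06. The corepressor Ncor1 was at 195 and 205 CPM.

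**Figure D4:**
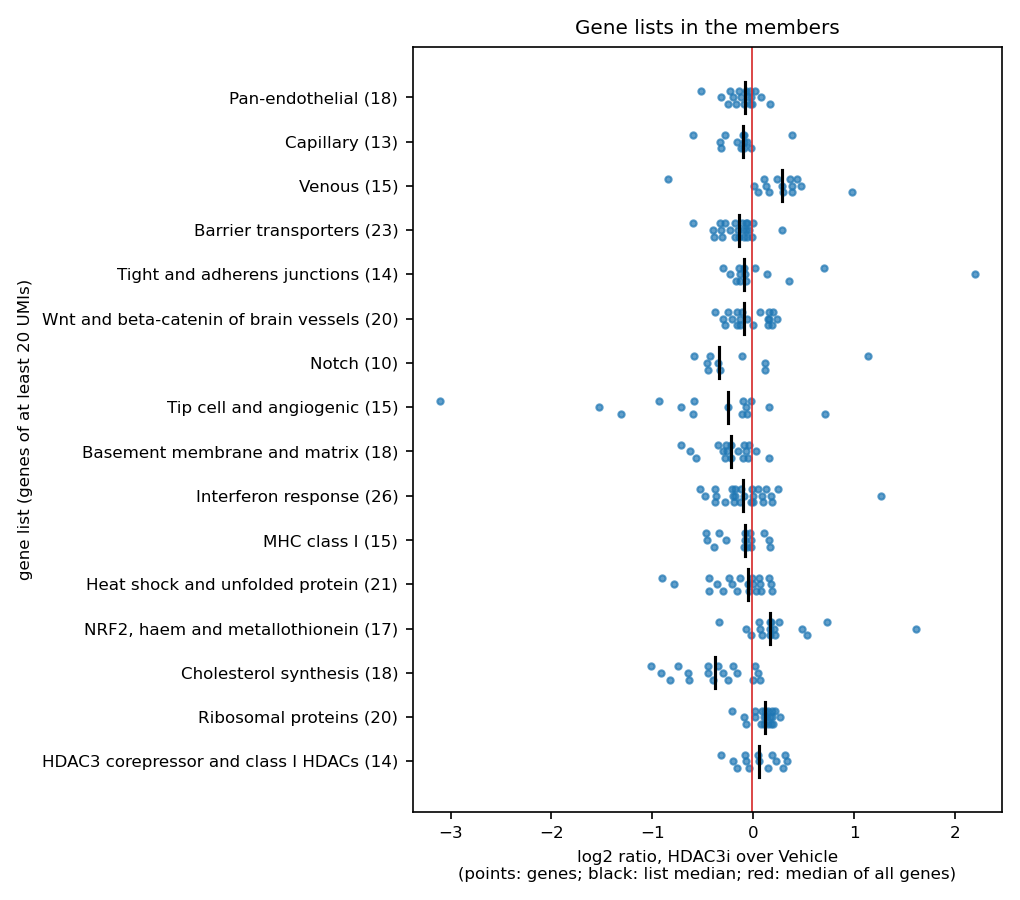
Log2 ratio, HDAC3i over vehicle (x axis), of each measured gene (points) in 16 gene lists (rows, with the number measured), with the list median in black and the median of all genes, -0.01, in red. Venous genes lie mostly to the right and cholesterol synthesis genes mostly to the left.

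Few members held transcripts of dividing cells. At least 2 UMIs over Mki67, Top2a, Cdk1, Birc5, Cenpf and Ccna2 were found in 6 of 316 HDAC3i members, 1.90% (0.70% to 4.09%), and 3 of 243 vehicle members, 1.23% (0.26% to 3.57%). Thinned to 2000 UMIs, 0 of 307 and 0 of 237 did. A count of 0 allows up to 0.977% and 1.27% of cells with such UMIs at that depth, which is no limit on the share of cells that express the genes. The thinned values therefore compare nothing between the libraries, and the unthinned intervals overlapped.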

How the data were processed

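UMI counts per barcode and gene were deposited by the authors, and per the file headers the software was Cell Ranger 3.0.2. The submitters' processing notes name mm10, Cell Ranger and Seurat. The treatment of reads matching several genes is not given in these sources. The cell filter asked for 500 genes, 1000 UMIs and no more than 15% mitochondrial UMIs. Members, gene lists and rules were chosen with earlier results of these data known. Counts were summed over members per library and set against each other as CPM, with exact conditional intervals for ratios and Clopper-Pearson intervals for shares. List genes had at least 20 UMIs, and 0.5 was added where a count was 0. Genes named are the 15 highest and 15 lowest ratios, leaving out those over 10 times higher in another cluster, abundant or extreme list members, rule genes and cluster-leading genes, and the text prints a part of them, picked after their values were seen. Some withheld items are left out of the text. Members were clustered from 2000 variable genes, 20 principal components and 15 neighbours with leidenalg 0.10.2 at resolution 0.6. A cluster of all barcodes was called endothelial if members made up at least 20% of it or Cldn5, Flt1 or Pecam1 led it. The latter clause was added after seeing the haemoglobin-led endothelial cluster. Scrublet in scanpy 1.11.5 called 21 and 6 kept barcodes doublets, 2 and 1 of them members, and these stayed in. At 27 of 5145, the caller marked so few that doublets may remain. Positions are from GENCODE M21. The scripts were tested on simulated data.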

Additional observations from a re-analysis of the deposited data

How the results depend on the processing

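No paired analysis was possible because each group has 1 library. The number of genes at least 1.5-fold higher, 26, was 8 without the 5% of members with the most UMIs, and 482 with a minimum of 20 UMIs and no minimum CPM, where the number lower, 23, was 497. In alternatives chosen after seeing the data, it was 15 without members outside endothelial clusters and 12 without clusters 6 and 7. The share of HDAC3i members with dividing-cell transcripts was 0 when thinned and 1.90% unthinned. Log2 ratios changed sign for Ch25h (-0.092 in clusters 1, 3, 4 and 5, -0.33 without clusters 6 and 7, -0.041 without the deepest members), Hs3st1 (-0.44 in clusters 1, 3, 4 and 5), Trp53i11 (0.40 in clusters 1, 3, 4 and 5, 0.55 without clusters 6 and 7, 0.51 without the deepest members, 0.093 with each cell weighted alike), Spp1 and Lyz2 (-1.30 and -0.60 without the deepest members) and, when thinned, Ifi203 (0.10) and Scgb3a1 (0.029). The cause was not tested. Over the alternatives run, the ratio stayed between 0.48 and 0.58 for Hspa1a, 0.42 and 0.54 for Hspa1b, 0.45 and 0.63 for Plat, 0.62 and 0.72 for Tfrc, and 0.58 and 0.78 for Hes1.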

Other observations

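Other endothelial pathways showed small ratios in the members. Of 20 genes of Wnt and beta-catenin signalling, which builds the barrier, 12 were under 1, against 51.3% of all measured genes. None was past the fold, and the median log2 ratio was -0.09. Its transcription factor Lef1 was at 356 and 319 CPM (HDAC3i, vehicle) and its receptor Fzd4 at 178 and 170 CPM. Of 18 BMP and TGF-beta genes 10 were under 1, near the 51.3% of all measured genes. Their target Id1 was at 763 and 579 CPM (1.32, 1.24 to 1.41), while Eng, a co-receptor, was at 566 and 704 CPM (0.80, 0.75 to 0.86). Edn1, the vasoconstrictor endothelin, was at 64.7 and 106 CPM (0.61, 0.51 to 0.73), and Pdgfb, a ligand that recruits pericytes, at 184 and 237 CPM (0.78, 0.69 to 0.87). The long noncoding RNA Kcnq1ot1 was at 43.7 and 68.8 CPM (0.64, 0.51 to 0.80). The capillary gene Rgcc went against the other 12 genes of its list, at 666 and 509 CPM (1.31, 1.22 to 1.40).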
